A study of Arabidopsis thaliana with 32 samples.

Results

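In roots of the Arabidopsis control line 35S:EYFP, 98 of 33607 loci were chosen by their measured level, which was lower after iron deficiency. A locus was taken when its higher Fe-deficient library reached at most 0.77 times its lower control library, its Fe-deficient mean was at most 0.67 times its control mean, and its control mean was at least 5 RPKM (read density scaled to gene length and library size). These EYFP OE root libraries therefore fixed the direction, and their values for the 98 genes are given as a description with no test. RefSeq held 96 of the 98 genes, of which 93 code for proteins, 1 is a miRNA, 1 a snoRNA and 1 a snRNA.

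The study measured poly(A) RNA of Arabidopsis thaliana in 32 libraries, 2 from each of 16 groups of 4 lines, 2 media and 2 tissues. IMA1 OE and IMA3 OE express the open reading frame of IMA1 or IMA3 from the 35S promoter, opt3-2 carries a T-DNA insertion in OPT3, and EYFP OE expresses EYFP from the same promoter and serves as the control line. All seedlings grew for 10 days on medium with iron and sucrose in continuous light, 25 to a plate, and were then moved for 72 hours to medium without iron containing ferrozine, an iron chelator, or to fresh control medium. The treatment protocol gives ferrozine at 100 µM and the series design gives 300 µM, so the dose is not settled here.

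The 35S promoter is active in most cells, so both overexpressors place the peptide outside the cells in which it is normally made, and opt3-2 is a single insertion line. The tissue was taken from the titles and the tissue label, since the source field calls the rosette samples roots as well. Root marker genes summed to between 280 and 380 RPKM in roots, against 20.8 to 26.8 RPKM in rosettes. The labels do not say that the libraries of a group came from separate cultures, so the p-values below measure the spread between libraries, which may be technical.

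Plants hold spare iron as ferritin in plastids and in vacuoles loaded by transporters of the VIT family. When iron runs short, they produce less ferritin and less of several iron-containing enzymes, while uptake genes are switched on. The IMA (IRON MAN) peptides promote the uptake response, and OPT3 loads iron into the phloem and takes part in signalling shoot iron status to the root. The iron uptake transporter IRT1 also carries zinc, and the superoxide dismutases of the chloroplast exist as iron and as copper-zinc forms. The copper-responsive microRNA miR398 targets the copper-zinc forms.

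MIR398b, the gene of one such microRNA, is among the 98, and its mature products are shown because MIR398b is the only miRNA in the set. Its values are of poly(A) RNA counted at its locus and not of the mature forms. The locus lies within AT5G14550 on the opposite strand, so its precursor cannot be told apart from RNA of that gene. Bases 2 to 8, the seed, are in capitals.
miR398b-3p: uGUGUUCUcaggucaccccug
miR398b-5p: aGGGUUGAuaugagaacacac

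GTAC is the core of the element bound by SPL7, the copper-deficiency factor of Arabidopsis, and the 250 bases before the RefSeq start of 3 of the genes below are shown because they hold 5, 3 and 1 copies. Other members that are not shown, such as CaS and NADP-ME1, hold more copies than ZIP2 or FSD1. The RefSeq start of MIR398b lies just before its mature 5p product, so transcription may begin elsewhere. Coordinates are on TAIR10.1, sequences run 5′ to 3′ on the gene's strand, and each GTAC is in capitals. MIR398b lies on the plus strand and its stretch is chr5:4690772-4691021. ZIP2 lies on the minus strand at chr5:23992909-23993158, and FSD1 on the minus strand at chr4:12887012-12887261.
MIR398b: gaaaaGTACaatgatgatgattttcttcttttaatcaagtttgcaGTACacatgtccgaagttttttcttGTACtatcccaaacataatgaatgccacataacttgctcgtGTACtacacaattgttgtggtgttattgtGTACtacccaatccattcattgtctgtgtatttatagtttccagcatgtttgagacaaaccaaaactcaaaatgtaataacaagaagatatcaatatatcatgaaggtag
ZIP2: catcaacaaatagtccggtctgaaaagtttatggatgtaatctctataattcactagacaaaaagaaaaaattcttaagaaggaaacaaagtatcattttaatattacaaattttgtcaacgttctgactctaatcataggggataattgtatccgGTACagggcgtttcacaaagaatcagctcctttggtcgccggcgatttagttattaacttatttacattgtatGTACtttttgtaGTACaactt
FSD1: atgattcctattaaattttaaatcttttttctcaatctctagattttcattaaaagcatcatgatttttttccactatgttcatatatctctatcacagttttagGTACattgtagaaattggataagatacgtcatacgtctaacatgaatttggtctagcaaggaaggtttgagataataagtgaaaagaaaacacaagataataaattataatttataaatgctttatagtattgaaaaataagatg

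Over windows of 300 bases (250 before and 50 from the start), GTAC was present at least once in 45.8% of the 96 matched members and in 39.0% of all 27443 gene windows. Windows with 3 or more copies made up 9.38% of the members, 9 genes, and 1.99% of all windows. The windows of MIR398b and CaS held 5 or more, which is 2.08% of the members and 0.0838% of all windows; both copy limits were chosen after the counts were seen. The G-box CACGTG was found in 12.5% of member windows and 7.68% of all windows, GNATATNC in 10.4% and 6.25%, and AAATATCT, the evening element, in 7.29% and 5.65%, on either strand. The iron-dependent regulatory sequence (IDRS) known from the FER1 promoter was found in no member window and in 0.0% of all windows. The search thus missed it in the FER1 window too, and says nothing about whether the members carry it. A motif match is a description of the letters and not a binding site.

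In EYFP OE roots the Fe-deficient to control ratio of means ran from 0.0633 to 0.668 over the 98 genes, with a median of 0.542, and 36 genes had a ratio of 0.5 or less. Their control means spanned 5.17 to 2397.1 RPKM with a median of 17.3, and 13 exceeded 100 RPKM. The genes closest inside the ratio limit were YSL3, RCA and PMSR1. AT1G65900 at 0.674, BFN1 at 0.677 and ESL1 at 0.686 were closest outside it. By the all-gene limma fit used below, 49 of the 98 passed an adjusted p of 0.05 as lower, where 0.442% of all genes tested did; the same libraries chose the genes, so nothing is read from this. The genes are spread over all 5 nuclear chromosomes, and KIN1 and KIN2 are adjacent, 892 bases apart.

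**Figure D1:**
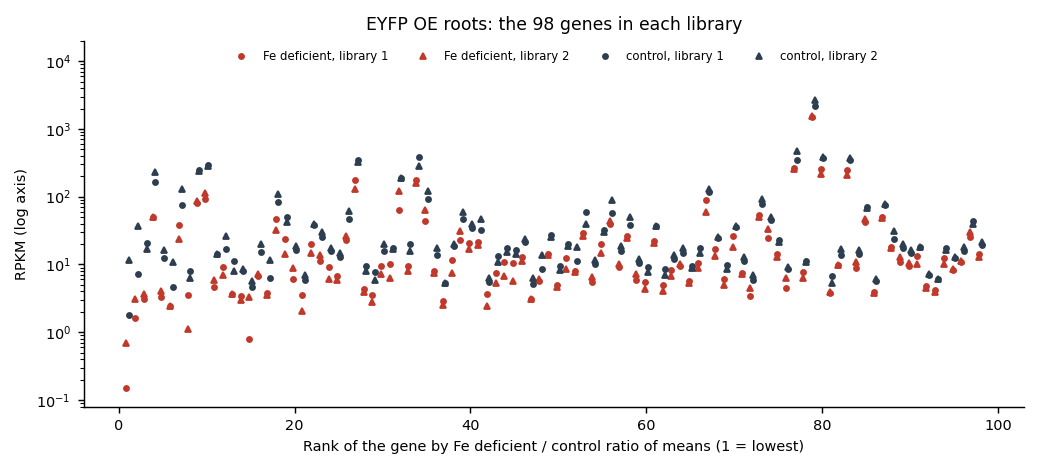
RPKM (log axis) of each of the 98 genes in the 2 Fe-deficient and 2 control EYFP OE root libraries, ordered by their Fe-deficient to control ratio of means. Both Fe-deficient points of every gene lie below both control points, as the rule requires; most genes lie between 1 and 100 RPKM.

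Iron storage genes were 4 of the 98: the ferritins FER1, FER2 and FER4, and VTL2, a member of the vacuolar iron transporter family. FER1 had 38.71 and 23.77 RPKM in Fe-deficient EYFP OE roots, against 74.76 and 128.15 RPKM in control EYFP OE roots. FER2, a ferritin known mainly from seeds, had 3.4 and 2.96 RPKM under deficiency and 8.09 and 8.66 RPKM on control medium. FER4 averaged 7.55 ± 2.19 RPKM under deficiency and 16.8 ± 1.18 RPKM on control medium (SD, n = 2 each), without overlap. VTL2 had 2.4 and 2.42 RPKM under deficiency and 4.71 and 11.03 RPKM on control medium, so its control libraries differed from each other by more than the lower one differed from the Fe-deficient pair.

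Of the transporters for zinc and iron there were 7: the ZIP family members ZIP2, ZIP3, ZIP4 and IRT3, the zinc exporter HMA2, and YSL2 and YSL3, carriers of metal-nicotianamine complexes. ZIP2 was the lowest of these, with 3.04 and 3.62 RPKM under deficiency, against 20.43 and 16.77 RPKM on control medium. HMA2, which loads zinc into the xylem, had 6.13 and 9.01 RPKM under deficiency and 16.19 and 18.53 RPKM on control medium. On the log2 scale the 7 genes ranged from -2.32 to -0.56.

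Copper and superoxide genes numbered 5: FSD1, the iron superoxide dismutase; MIR398b; CCH, a copper chaperone; LAC7, a laccase; and AT3G43670, a copper amine oxidase. FSD1 had 49.84 and 49.82 RPKM under deficiency, against 165.49 and 233.07 RPKM on control medium. MIR398b had 3.34 and 4.09 RPKM under deficiency and 12.62 and 16.59 RPKM on control medium. CSD1, a cytosolic copper-zinc superoxide dismutase and a known target of miR398, is not one of the 98 and ran the other way in the same libraries, with 777.14 and 675.04 RPKM under deficiency and 433.98 and 426.85 RPKM on control medium.

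Enzymes that hold heme or non-heme iron numbered 6, and 4 more genes belong to nitrate assimilation and its electron supply. The cytochrome P450 CYP712A1 and the oxygenase AT1G52820 had the lowest ratios of all, yet in every root group their second library exceeded their first. CYP712A1 had 0.15 and 0.7 RPKM under deficiency, against 1.82 and 11.6 RPKM on control medium, and AT1G52820 had 1.62 and 3.08 RPKM, against 7.16 and 36.78 RPKM. NIA1, a nitrate reductase that carries heme and molybdenum, had 257.89 and 216.84 RPKM under deficiency and 367.82 and 380.89 RPKM on control medium. NIR1, the nitrite reductase with siroheme and an iron-sulfur cluster, and the root ferredoxin reductases RFNR1 and RFNR2 were lower by similar amounts, the 4 genes ranging from -0.70 to -0.65 on the log2 scale.

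Genes of plastids and photosynthesis were the largest group of known role, with 12 members between -0.87 and -0.56 on the log2 scale. They include HEMA1 for the first committed step of tetrapyrrole synthesis, CHLH and GUN4 of magnesium chelation, SUFB of plastid iron-sulfur assembly, PSAF of photosystem I, and RCA, Rubisco activase. HEMA1 had 21.93 and 20.93 RPKM under deficiency, against 36.37 and 37.16 RPKM on control medium. The 5 leaf markers, of which RCA is one, summed to 364 and 526 RPKM in Fe-deficient and 541 and 629 RPKM in control EYFP OE roots, and none was at 0 in any group. Their part in the lower plastid genes was not tested, and in these bulk samples fewer cells of a type and less RNA per cell cannot be told apart.

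Genes of cold, drought and heat responses numbered 6, among them KIN1, KIN2, RD29A and the transcription factor RD26. KIN1 had 81.56 and 87.02 RPKM under deficiency, against 246.01 and 237.58 RPKM on control medium, and KIN2 had 178.1 and 131.39 RPKM, against 348.99 and 325.69 RPKM. The defence group of 5 was led by the defensin-like AT3G59930, with 91.01 and 114.65 RPKM under deficiency and 294.45 and 288.23 RPKM on control medium. The coding sequences of AT3G59930 and AT5G33355, another defensin-like member, are 99.6% identical and those of KIN1 and KIN2 95.0%, so the split of reads within each pair is uncertain. Another 6 genes encode other transporters, such as the sulfate transporter SULTR3;5 and the boron exporter BOR1, and 43 fell in none of these groups, which were drawn up after the values were seen.

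A gene on the opposite strand overlaps 23 of the 98, including FER1 over 1334 bases, CYP712A1 over 1775 bases and MIR398b, which lies within AT5G14550. The counting strand is not given in the sources used here, so reads of such pairs cannot be told apart.

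Among genes of the wider pathways, the iron storage list had 7 genes tested in EYFP OE roots, of which 5 passed the test as lower, and 4 of these 7 are members. The superoxide dismutase list had 8, with 1 lower and 3 higher. For the zinc and metal transport list, 5 of 11 were lower and 1 higher, and for tetrapyrrole synthesis 1 of 12 was lower. None of the 32 genes on the photosynthesis list passed in either direction by limma, 3 were lower and 0 higher at an unadjusted p under 0.05, and their median was -0.47 on the log2 scale, where the median of all genes was -0.02. As for the members, these counts use the libraries of the rule and are given as description.

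Whether the same genes were lower in the other 3 lines was tested within each line, Fe-deficient against control. The libraries compared had no part in the choice. The change was bridged through the EYFP OE control libraries, which cancel apart from differences in normalisation. The spread behind the test came from all 8 root groups, the 2 EYFP OE groups among them. Every change is on the log2(RPKM + 0.5) scale, which understates the change of low genes, and the test was a limma-type moderated test over 20577 root genes with Benjamini-Hochberg adjustment. All 98 genes were tested. Of these, 13 fell in IMA1 OE roots, where 0.165% of all genes fell and 0.953% rose; 6 fell and 1 rose in IMA3 OE roots, against 0.068% and 0.627% of all genes; and 19 fell in opt3-2 roots, where 0.428% of all genes fell and 0.433% rose. No member rose in IMA1 OE or opt3-2 roots by limma, and none had a raised value at an unadjusted p under 0.05 in either line, where 3.89% and 4.05% of all genes did; in IMA3 OE 3 did, against 3.49%. With the spread from the 6 root groups other than EYFP OE, added after the data were seen, 13, 6 and 17 members fell in IMA1 OE, IMA3 OE and opt3-2, and 12, 5 and 16 of the falls were kept. The lost ones were FSD1 in IMA1 OE, ZIP2 in IMA3 OE and HEMA1, CIPK17 and TRXF1 in opt3-2, at limma adjusted p-values of 0.0577 to 0.11. With the spread from the compared groups alone 8, 4 and 11 fell, and 8, 2 and 10 were kept. The shares of all genes called with these other sources of the spread are not given here. The counts under them are therefore not read as a result about the members.

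The sign was shared more widely than the calls. The member's change was below zero for 90 genes in IMA1 OE, 90 in IMA3 OE and 93 in opt3-2 roots, and for 86 in all 3, where 19.4% of all genes were below zero in all 3. The members' medians were -0.36 in IMA1 OE, -0.32 in IMA3 OE and -0.61 in opt3-2 roots, and the medians of all genes were -0.01, -0.01 and 0.02. Both Fe-deficient libraries lay below both control libraries for 51 genes in IMA1 OE, 59 in IMA3 OE and 80 in opt3-2, where 15.8%, 16.6% and 16.9% of all genes tested were separated in this way. In EYFP OE roots the median was -0.83, a value set by the rule. Apart from the bridging EYFP OE control libraries, the 3 root responses share no libraries with each other. However, all 98 genes were picked for a large difference in 4 libraries, so a smaller change elsewhere is no sign of a weaker response.

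**Figure D2:**
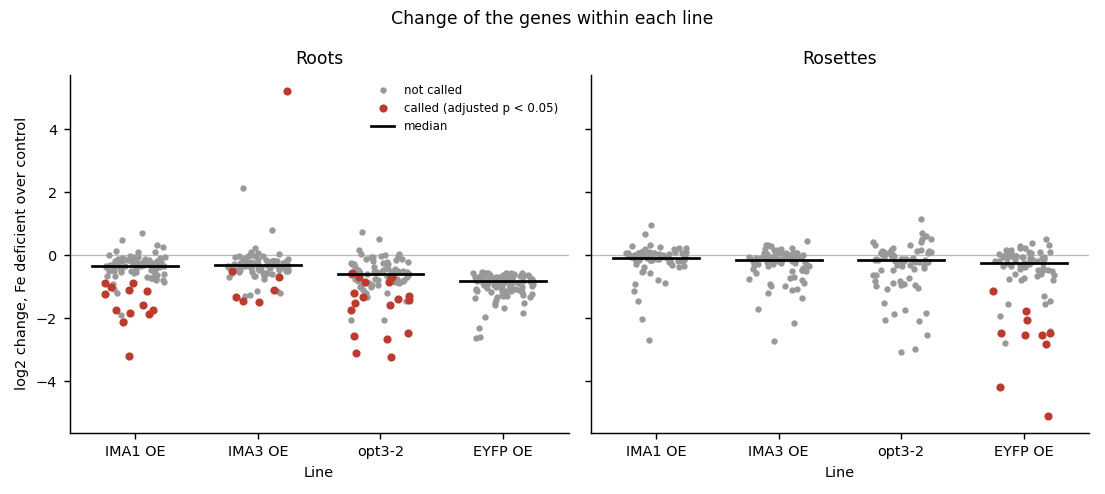
Change in log2(RPKM + 0.5), Fe deficient over control, of each member in roots (left) and rosettes (right) of the 4 lines; bars are medians, and red points passed an adjusted p of 0.05. EYFP OE roots chose the genes, so no call is marked there; in the other lines' roots 13, 7 and 19 points are red, and in rosettes the 10 red points are all in EYFP OE.

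ZIP2, IRT3, FER1 and AT3G59930 fell in the roots of all 3 lines, as did 8 genes among all tested. FER1 had 23.88 and 18.51 RPKM in Fe-deficient opt3-2 roots, against 183.51 and 186.23 RPKM in control opt3-2 roots. It had 86.85 and 80.7 RPKM in Fe-deficient IMA1 OE roots, against 257.79 and 305.93 RPKM on control medium, and 59.57 and 50.07 RPKM in Fe-deficient IMA3 OE roots, against 141.52 and 147.17 RPKM on control medium. The media did not overlap in any line. FER1 fell by 3.10 ± 0.25 in opt3-2 (SE, adjusted p = 0.000234), by 1.74 ± 0.25 in IMA1 OE (adjusted p = 0.00432) and by 1.33 ± 0.25 in IMA3 OE (adjusted p = 0.0407) by the limma-type test, with 2 libraries a group.

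ZIP2 had 5.12 and 4.32 RPKM in Fe-deficient opt3-2 roots and 21.12 and 13.65 RPKM on control medium. Under deficiency it had 3.97 and 4.44 RPKM in IMA1 OE, against 16.01 and 16.9 RPKM on control medium, and 10.09 and 6.54 RPKM in IMA3 OE, against 18.6 and 19.85 RPKM. Control libraries of the 4 lines lay between 13.65 and 21.12 RPKM, and the IMA3 OE Fe-deficient libraries were the highest of the 4 deficient pairs. The limma-type changes were -1.73 ± 0.21 in opt3-2 (adjusted p = 0.00283), -1.83 ± 0.21 in IMA1 OE (0.000984) and -1.11 ± 0.21 in IMA3 OE (0.0457). The IMA3 OE call was lost with the spread from the root groups other than EYFP OE (limma adjusted p = 0.0933).

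IRT3, a zinc and iron transporter of the plasma membrane, had 21.63 and 24.58 RPKM in Fe-deficient opt3-2 roots, against 62.32 and 73.59 RPKM on control medium. It had 20.68 and 23.47 RPKM in Fe-deficient IMA1 OE roots and 51.02 and 54.29 RPKM on control medium; in IMA3 OE the values were 27.83 and 30.95 RPKM, against 52.98 and 49.03 RPKM. Its changes of -1.53 ± 0.13, -1.23 ± 0.13 and -0.71 ± 0.13 had adjusted p-values of 0.00034, 0.0006 and 0.0411 by limma. AT3G59930 had 83.36 and 133.99 RPKM in Fe-deficient opt3-2 roots, against 629.51 and 628.0 RPKM on control medium, a change of -2.57 ± 0.19 (limma adjusted p = 0.000234). Its Fe-deficient libraries lay between 77.85 and 133.99 RPKM in all 4 lines, while its control libraries ran from 277.3 RPKM in IMA3 OE to 629.51 RPKM in opt3-2.

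**Figure D3:**
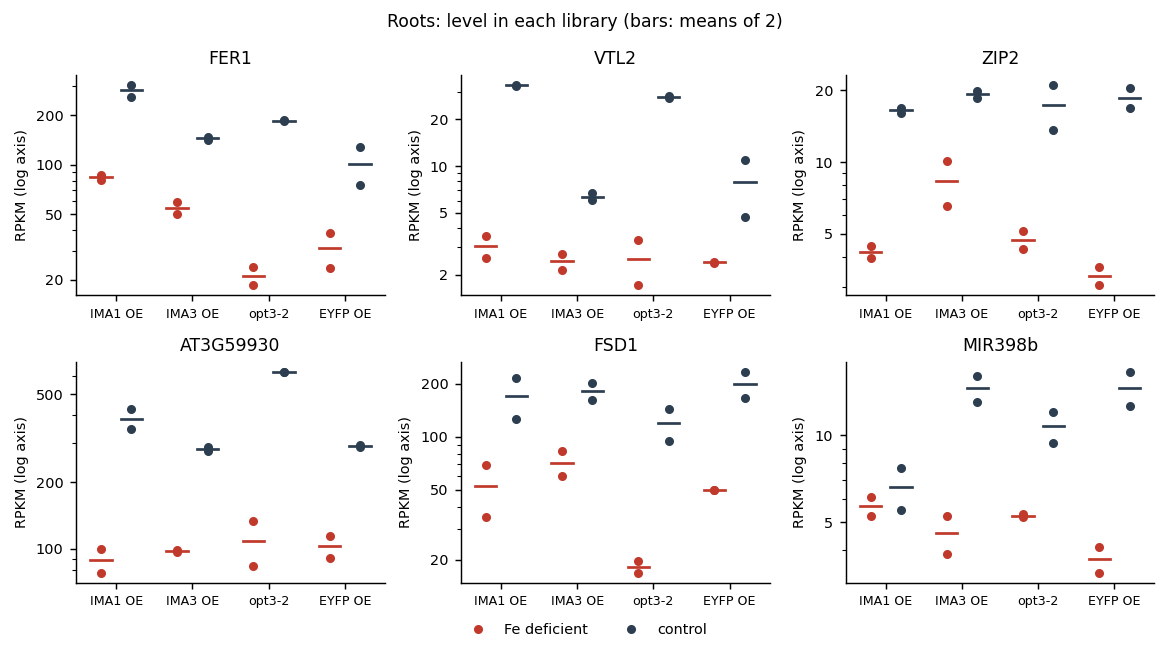
RPKM (log axes) of 6 members in every root library, Fe deficient (red, left of each pair) and control (dark, right) for IMA1 OE, IMA3 OE, opt3-2 and EYFP OE; points are libraries and bars are means of 2. For 5 of the 6 the media are apart in every line, while the MIR398b libraries overlap in IMA1 OE.

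VTL2 fell in the roots of IMA1 OE and opt3-2, the lines with the highest control levels. It had 2.57 and 3.58 RPKM in Fe-deficient IMA1 OE roots, against 33.47 and 32.84 RPKM on control medium, a change of -3.21 ± 0.32 (limma adjusted p = 0.000356). In opt3-2 it had 3.36 and 1.71 RPKM under deficiency and 27.51 and 28.16 RPKM on control medium, a change of -3.25 ± 0.32 (limma adjusted p = 0.000858). IMA3 OE roots had 2.15 and 2.73 RPKM under deficiency and 6.04 and 6.69 RPKM on control medium. The Fe-deficient libraries of the 4 lines lay between 1.71 and 3.58 RPKM, and the control levels of IMA1 OE and opt3-2 were above those of IMA3 OE and EYFP OE.

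Other calls shared by IMA1 OE and opt3-2 roots were ZIP4, ZIP3, YSL2, FSD1, AT5G33355 and UMAMIT29, a transporter of the amino acid exporter family. ZIP4, a zinc transporter, had 4.43 and 4.58 RPKM in Fe-deficient IMA1 OE roots, against 14.46 and 14.9 RPKM on control medium, and 6.33 and 8.22 RPKM in Fe-deficient opt3-2 roots, against 18.33 and 23.33 RPKM. It changed by -1.57 ± 0.15 and -1.43 ± 0.15, with limma adjusted p-values of 0.000209 and 0.000914. FSD1 had 16.85 and 19.62 RPKM in Fe-deficient opt3-2 roots, against 94.8 and 143.13 RPKM on control medium, and changed by -2.65 ± 0.34 (limma adjusted p = 0.00348). Its libraries were farther apart in IMA1 OE, with 34.97 and 69.31 RPKM under deficiency and 125.3 and 215.24 RPKM on control medium (-1.74 ± 0.34, limma adjusted p = 0.0324).

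In IMA1 OE roots the calls beyond those already named were CCH (-0.89 ± 0.13, limma adjusted p = 0.00666) and AT4G29905, an uncharacterized protein (-1.10 ± 0.23, limma adjusted p = 0.0457). AT3G59930, IRT3, VTL2, ZIP2 and ZIP4 were called with any single library left out, and the count was then 8 to 10. FSD1 was lost without Fe-deficient replicate 1 (adjusted p = 0.314) or control replicate 2 (0.231), and FER1 without control replicate 2 (0.0516), by limma. AT4G29905 and AT5G33355 were lost without control replicate 1, YSL2 and UMAMIT29 without Fe-deficient replicate 1, and CCH and ZIP3 without Fe-deficient replicate 2, with limma adjusted p-values between 0.055 and 0.304. Each count of 8 came without Fe-deficient replicate 1 or control replicate 2.

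The opt3-2 calls also took in FER4, AT3G43670, AT1G52342 (an uncharacterized protein), the kinase CIPK17 and 4 plastid genes: NYC1, which breaks down chlorophyll b, HEMA1, SUFB and TRXF1, a thioredoxin. FER4 had 6.03 and 4.37 RPKM in Fe-deficient opt3-2 roots, against 16.64 and 16.4 RPKM on control medium (-1.57 ± 0.17, limma adjusted p = 0.00125). NYC1 had 2.66 and 2.1 RPKM under deficiency, against 6.71 and 6.45 RPKM on control medium, and changed by -1.28 ± 0.13 (limma adjusted p = 0.00102). AT3G43670 had 10.05 and 9.91 RPKM under deficiency and 18.98 and 17.7 RPKM on control medium (-0.84 ± 0.09, limma adjusted p = 0.00147). SUFB changed by -0.85 ± 0.15 and HEMA1 by -0.69 ± 0.12, with limma adjusted p-values of 0.0258 and 0.0236.

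Leaving out 1 library kept 10 of the 19 opt3-2 calls throughout: the 4 shared by all lines, VTL2, ZIP4, FER4, NYC1, AT3G43670 and AT5G33355. The count was 11 to 13, 11 of them without control replicate 2. Without it FSD1 reached a limma adjusted p of 0.059 and ZIP3 one of 0.119, and UMAMIT29, AT1G52342 and TRXF1 reached 0.0733 to 0.335. HEMA1 and SUFB reached 0.185 and 0.188 without Fe-deficient replicate 2, and YSL2 and CIPK17 reached 0.204 and 0.284 without control replicate 1.

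Leaf markers moved with the opt3-2 plastid calls: their summed level was 138 and 191 RPKM in Fe-deficient opt3-2 roots and 232 and 404 RPKM in control opt3-2 roots, with 5 of 5 above 1 RPKM and none at 0. The corresponding sums were 274 and 394 RPKM under deficiency and 312 and 462 RPKM on control medium in IMA1 OE, and 298 and 463 RPKM and 406 and 600 RPKM in IMA3 OE. The 12 plastid members had a median change of -0.84 in opt3-2, -0.40 in IMA1 OE and -0.38 in IMA3 OE roots, and 4, 0 and 0 of them fell by limma, with 12, 4 and 3 lower and none higher at an unadjusted p under 0.05, where 4.73%, 2.99% and 2.38% of all genes were lower. By limma none of the 32 genes of the photosynthesis list was called in the roots of these lines; 16, 0 and 0 were lower and none higher at an unadjusted p under 0.05, with medians of -0.69 in opt3-2, -0.26 in IMA1 OE and -0.31 in IMA3 OE. The part of leaf tissue in these changes was not tested.

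IMA3 OE roots gave the shortest list of falls: MIR398b and AT3G43670 besides the 4 shared genes. The Fe-deficient libraries of this line stand apart in plastid and mitochondrial RNA, as given below. Their part in the length of this list was not tested. MIR398b had 5.26 and 3.88 RPKM under deficiency, against 16.02 and 13.06 RPKM on control medium (-1.49 ± 0.20, limma adjusted p = 0.00506). In IMA1 OE its libraries overlapped, at 6.09 and 5.26 RPKM under deficiency and 5.51 and 7.69 RPKM on control medium, and the opt3-2 values were 5.32 and 5.2 RPKM against 12.03 and 9.44 RPKM. No call in IMA3 OE held with every library left out in turn. The count was 3 without Fe-deficient replicate 1, 0 without Fe-deficient replicate 2, 0 without control replicate 1 and 1 without control replicate 2, and the highest limma adjusted p reached 0.474 for ZIP2, 0.415 for FER1, 0.338 for IRT3, 0.396 for AT3G43670, 0.0825 for MIR398b and 0.071 for AT3G59930.

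The gene that rose in IMA3 OE roots was the plastid locus ATCG00920, with 138.54 and 485.12 RPKM under deficiency, against 5.95 and 7.93 RPKM on control medium (5.22 ± 0.63, limma adjusted p = 0.00274). Those 2 Fe-deficient libraries stand apart: their plastid genes summed to 510 and 2085 RPKM, where the other 14 root libraries had 73.7 to 277 RPKM, and their mitochondrial genes to 1263 and 3363 RPKM, where the others had 349 to 708 RPKM. The part of this in the rise was not tested. The change was 4.32 to 6.12 and stayed past the threshold with any single IMA3 OE root library left out.

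Groups that were lower in EYFP OE roots but had no member called in the other 3 lines were the heme and non-heme iron enzymes (6 genes), nitrate assimilation (4) and cold, drought and heat (6). All of these genes were below zero in all 3 lines. At an unadjusted p under 0.05 the limma counts of lower genes were 2, 2 and 4 for the enzymes, 2, 0 and 1 for nitrate assimilation, and 2, 1 and 5 for cold, drought and heat in IMA1 OE, IMA3 OE and opt3-2, where 2.99%, 2.38% and 4.73% of all genes were lower. The nitrate group had medians of -0.36 in IMA1 OE, -0.24 in IMA3 OE and -0.45 in opt3-2 roots, and the cold group had -0.23, -0.31 and -0.72. KIN1 had 104.2 and 47.01 RPKM in Fe-deficient opt3-2 roots, against 186.81 and 124.3 RPKM on control medium. In IMA1 OE it had 110.41 and 93.25 RPKM under deficiency and 102.41 and 150.94 RPKM on control medium, and in IMA3 OE 141.53 and 89.62 RPKM, against 226.19 and 98.05 RPKM; in both lines the media overlapped.

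Among the zinc and iron transport members, HMA2 and YSL3 were called in the roots of none of the 3 lines. HMA2 had 4.91 and 6.97 RPKM in Fe-deficient IMA1 OE roots, against 4.94 and 7.68 RPKM on control medium, 8.65 and 10.38 RPKM in IMA3 OE, against 8.15 and 10.41 RPKM, and 10.98 and 13.55 RPKM in opt3-2, against 11.63 and 16.9 RPKM. The media overlapped for HMA2 in all 3 lines, and every one of these control libraries but the second of opt3-2 was below both EYFP OE control libraries.

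The differences between the root responses were tested directly for the 3 pairs of lines without EYFP OE. No member was called in any pair by limma, where 0.00972% of all genes were called in each direction for opt3-2 minus IMA1 OE, 0.0% lower and 0.00486% higher for opt3-2 minus IMA3 OE, and 0.00486% each way for IMA3 OE minus IMA1 OE. At an unadjusted p under 0.05, 8 members had a more negative change in opt3-2 than in IMA1 OE and 1 a less negative one, where 2.34% and 1.9% of all genes did. For opt3-2 against IMA3 OE the counts were 15 and 0, against 2.14% and 2.13% of all genes. The median difference was -0.24 for opt3-2 minus IMA1 OE, with 74 of 98 and 46.1% of all genes below zero, and -0.34 for opt3-2 minus IMA3 OE, with 84 and 46.5% below zero. FER1 had differences of -1.37 ± 0.35 and -1.78 ± 0.35 in these pairs, with limma adjusted p-values of 0.687 and 0.467. The second passed with the spread from the root groups other than EYFP OE (limma adjusted p = 0.0253) and with that of the compared groups alone (0.0454). IMA3 OE minus IMA1 OE had 10 members above and 1 below zero at that unadjusted p, where 1.39% and 1.2% of all genes were, VTL2 among them at 2.08 ± 0.46 (limma adjusted p = 0.844).

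CSD1, the miR398 target outside the 98, rose in the roots of 2 lines where FSD1 fell. It had 710.39 and 698.06 RPKM in Fe-deficient IMA1 OE roots, against 529.36 and 500.87 RPKM on control medium (limma adjusted p = 0.0109), and 684.34 and 710.79 RPKM in Fe-deficient opt3-2 roots, against 543.29 and 504.59 RPKM (adjusted p = 0.0274). In IMA3 OE roots it had 583.94 and 575.42 RPKM, against 486.3 and 476.37 RPKM, which missed the threshold (limma adjusted p = 0.111). From the fixed lists, 5 of the 11 zinc and metal transport genes tested fell in IMA1 OE and 1 rose, and 6 of 7 iron storage genes fell in opt3-2, against 3 in IMA1 OE and 1 in IMA3 OE. These counts include members already named. The zinc and metal transport falls include ZIP2, ZIP3, ZIP4 and YSL2. Members made up 3 of the iron storage falls in opt3-2, 2 in IMA1 OE and 1 in IMA3 OE.

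Set against EYFP OE in roots, the 98 genes were described without a test, since those comparisons share the libraries that chose them. On control medium the members' median difference from EYFP OE was -0.25 in IMA1 OE, -0.05 in IMA3 OE and -0.11 in opt3-2, and under deficiency it was 0.21, 0.47 and 0.13. Iron storage genes were above EYFP OE on control medium in IMA1 OE, all 4 between 0.41 and 2.06. Control FER1 libraries had 257.79 and 305.93 RPKM in IMA1 OE, 141.52 and 147.17 RPKM in IMA3 OE and 183.51 and 186.23 RPKM in opt3-2, against 74.76 and 128.15 RPKM in EYFP OE, so all 6 lay above both EYFP OE libraries.

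In rosettes 73 of the 98 genes passed the filter of a mean of 0.5 RPKM and were tested among 19521 genes. None of these libraries took part in the choice; the labels do not say whether roots and rosettes came from the same seedlings. In EYFP OE rosettes, 10 of the 73 fell and none rose by limma, where 0.164% of all genes fell and 0.174% rose; at an unadjusted p under 0.05 the counts were 21 and 0, against 1.43% and 1.1% of all genes. When p-values from the authors' deposited table were adjusted in the same way, 14 were lower and 1 higher, against 0.205% and 0.246% of all genes. The members' median was -0.25 with 58 of 73 below zero, and that of all genes 0.00 with 49.6% below zero. The genes that fell were FSD1, FER1, AT3G43670, AT2G36885, FER4, AT1G68650, SAPX, SUFB, AT5G59400 and AT3G61870.

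FSD1 had 16.83 and 12.47 RPKM in Fe-deficient EYFP OE rosettes, against 403.62 and 667.39 RPKM on control medium. Its fall of -5.11 ± 0.53 was the deepest of the 73 (limma adjusted p = 0.0019). AT3G43670 had 1.61 and 0.99 RPKM under deficiency and 12.84 and 11.24 RPKM on control medium (-2.82 ± 0.24, limma adjusted p = 0.000996). SUFB, which scaffolds plastid iron-sulfur clusters, had 33.17 and 19.36 RPKM, against 96.01 and 117.82 RPKM (-2.05 ± 0.22, limma adjusted p = 0.00208). For these 3 genes the media were far apart, and the calls held without any single library.

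FER1 had 9.34 and 4.5 RPKM in Fe-deficient EYFP OE rosettes, against 56.31 and 287.43 RPKM on control medium (-4.19 ± 0.62, limma adjusted p = 0.0162). FER4 had 15.59 and 7.66 RPKM, against 46.44 and 92.46 RPKM (-2.53 ± 0.35, limma adjusted p = 0.0126). SAPX, the stromal ascorbate peroxidase and a heme enzyme, had 22.31 and 8.22 RPKM, against 64.27 and 92.64 RPKM (-2.46 ± 0.39, limma adjusted p = 0.0256). The media did not overlap for these genes, but the control libraries of FER1 were far apart from each other.

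The other rosette falls were AT1G68650, of the UPF0016 family, at -2.48 ± 0.33, AT2G36885, annotated as a translation initiation factor, at -2.54 ± 0.37, AT5G59400, a PGR5-like protein, at -1.79 ± 0.29, and AT3G61870 at -1.15 ± 0.17, with limma adjusted p-values of 0.00848, 0.0162, 0.0302 and 0.0148. Without Fe-deficient replicate 2 the count was 4, and without control replicate 2 it was 3. FER1 then reached an adjusted p of 0.226 and FER4 one of 0.133, AT5G59400 0.362, AT1G68650 0.133, AT3G61870 0.172, SAPX 0.301 and AT2G36885 0.226. With the spread taken from the 2 compared groups alone the count was 0.

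**Figure D4:**
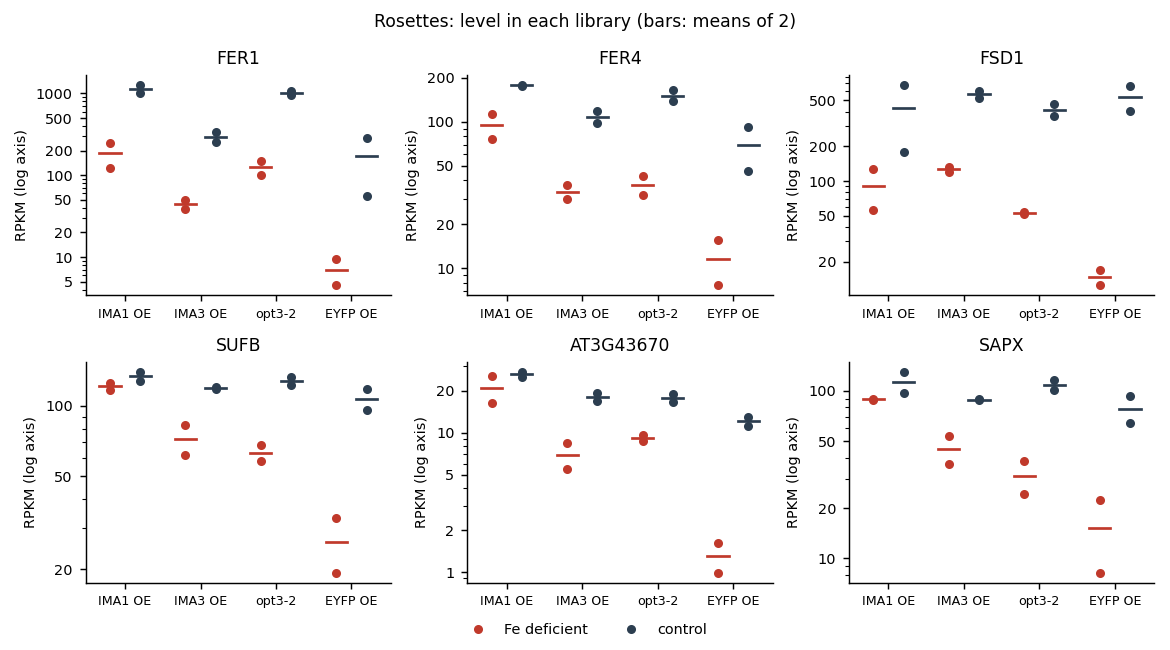
RPKM (log axes) of 6 members that fell in EYFP OE rosettes, in every rosette library of the 4 lines, Fe deficient (red, left of each pair) and control (dark, right); points are libraries and bars are means of 2. The EYFP OE Fe-deficient libraries are the lowest of all 16 for each gene, and in IMA1 OE the Fe-deficient SUFB libraries are close to the control ones.

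Of the genes called in rosettes, FSD1, FER1, FER4, AT3G43670 and SUFB were also called in the roots of at least 1 of the other 3 lines. ZIP2 lay between 0.01 and 0.35 RPKM in all 16 rosette libraries and ZIP3 between 0.01 and 0.56 RPKM, and neither was tested there. The 5 zinc and iron transport members that were tested were all below zero in EYFP OE rosettes. Their median was -0.80 and none was called. IRT3 had 3.9 and 4.39 RPKM in Fe-deficient EYFP OE rosettes, against 13.82 and 12.25 RPKM on control medium, which did not pass. MIR398b had 1.7 and 7.51 RPKM in Fe-deficient and 27.54 and 29.04 RPKM in control EYFP OE rosettes and did not pass either. The copper-zinc side of the superoxide dismutases rose in EYFP OE rosettes, CSD1 by 1.47 (limma adjusted p = 0.0289), CSD2 of the plastid by 1.85 (0.00805) and their copper chaperone CCS by 1.82 (0.0107).

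The 12 plastid members had a median of -0.38 in EYFP OE rosettes, with 2 falls, SUFB and AT5G59400. RCA had 4824.91 and 6102.97 RPKM under deficiency, against 4824.91 and 4824.91 RPKM on control medium, values that are identical in 3 of the 4 libraries as deposited. The summed leaf markers, RCA among them, were 34731 and 36078 RPKM in Fe-deficient and 34958 and 36481 RPKM in control EYFP OE rosettes. The part of leaf tissue in the falls was not tested. Of the 6 cold, drought and heat genes none was called by limma and 1 was lower at an unadjusted p under 0.05, and in all 8 rosette groups the first library of KIN2 and of RD29A was above the second.

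No member was called in the rosette responses of IMA1 OE, IMA3 OE or opt3-2 by limma, in either direction. The share of all genes called lower was 0.0% in IMA1 OE, 0.0% in IMA3 OE and 0.0973% in opt3-2. At an unadjusted p under 0.05, 7, 15 and 17 members were lower, where 0.82%, 0.589% and 3.22% of all genes were, and 0, 0 and 3 were higher, where 0.548%, 0.645% and 2.48% were. Of the 73, 46, 54 and 48 were below zero, against 49.0%, 47.7% and 41.8% of all genes. FER4 had 42.81 and 31.54 RPKM in Fe-deficient opt3-2 rosettes, against 137.88 and 163.74 RPKM on control medium, and missed the threshold (-2.04 ± 0.35, limma adjusted p = 0.0602). FER1 had 149.85 and 100.5 RPKM in Fe-deficient opt3-2 rosettes, against 950.28 and 1069.72 RPKM, and 247.77 and 123.02 RPKM in Fe-deficient IMA1 OE rosettes, against 1281.59 and 1002.46 RPKM. In both lines the media did not overlap, with limma adjusted p-values of 0.122 and 1. One control opt3-2 rosette library stands apart, with leaf markers at 21092 RPKM where the other 15 rosette libraries had 30489 to 40336 RPKM. Its plastid genes summed to 24319 RPKM, against 1700 to 7421 RPKM in the others, and its mitochondrial genes to 749 RPKM, against 87.3 to 252 RPKM. Without it, as with all libraries, no member was called in the opt3-2 rosette response. With replicate number added to the fit as a block, falls were called in IMA3 OE and opt3-2 rosettes. The labels do not state that these numbers pair libraries, and the counts are in the closing section.

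Whether the rosette response differed from that of EYFP OE was tested as an interaction. No member passed by limma for any line, 0.0% of all genes were called higher for each, and 0.00512% were called lower for IMA1 OE; at an unadjusted p under 0.05, 16 members were less negative in IMA1 OE, 13 in IMA3 OE and 5 in opt3-2, where 1.02%, 0.758% and 0.999% of all genes were, and none was more negative, where 0.835%, 0.533% and 1.24% were. AT3G43670 came nearest, with a difference of 2.45 ± 0.34 for IMA1 OE minus EYFP OE (limma adjusted p = 0.0701), followed by SUFB at 1.88 ± 0.31 (0.107).

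On Fe-deficient medium the IMA1 OE rosettes held more of 11 members than EYFP OE rosettes did, where 0.307% of all genes were higher; this comparison was added after the data were seen. AT3G43670 had 25.62 and 16.22 RPKM in Fe-deficient IMA1 OE rosettes, against 1.61 and 0.99 RPKM in Fe-deficient EYFP OE rosettes (3.51 ± 0.24, limma adjusted p = 7.89e-05). FER1 had 247.77 and 123.02 RPKM, against 9.34 and 4.5 RPKM (4.60 ± 0.62, limma adjusted p = 0.0063), and SUFB 125.57 and 116.81 RPKM, against 33.17 and 19.36 RPKM (2.21 ± 0.22, limma adjusted p = 0.000725). HCHIB, a basic chitinase, had 3.47 and 3.12 RPKM, against 0.49 and 0.63 RPKM (1.79 ± 0.18, limma adjusted p = 0.000944). The other 7 were FER4, AT2G36885, AT1G68650, AT3G61870, SAPX, VTL2 and AT5G59400. The count was 3 without IMA1 OE Fe-deficient replicate 1 and 5 without its replicate 2. With the spread from the compared groups alone it was 0, as it was for IMA3 OE and opt3-2.

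IMA3 OE rosettes held more of HCHIB (1.42 ± 0.18) and AT3G43670 (2.02 ± 0.24), both at a limma adjusted p of 0.0402, where 0.0359% of all genes were higher, and the count was 0 to 6 with 1 library left out. In opt3-2 rosettes the call was AT3G43670, with 9.59 and 8.72 RPKM, against 1.61 and 0.99 RPKM in EYFP OE (2.40 ± 0.24, limma adjusted p = 0.00301), where 0.0205% of all genes were higher; it reached 0.0706 without opt3-2 Fe-deficient replicate 1.

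On control medium no member differed between any line and EYFP OE in rosettes by limma, where 0.0205%, 0.0% and 0.143% of all genes were higher in IMA1 OE, IMA3 OE and opt3-2 and 0.0461%, 0.0% and 0.0307% lower. At an unadjusted p under 0.05, 6, 3 and 6 members were higher, where 3.73%, 1.68% and 4.66% of all genes were, and 4, 2 and 5 lower, where 3.05%, 1.51% and 3.41% were. The adjusted p-values from the authors' deposited table of each comparison give 2, 2 and 3 higher, against 0.42%, 0.159% and 0.671% of all genes, and 0, 1 and 4 lower, against 0.149%, 0.0563% and 0.22%. FER1 had 1281.59 and 1002.46 RPKM in control IMA1 OE rosettes and 950.28 and 1069.72 RPKM in control opt3-2 rosettes, against 56.31 and 287.43 RPKM in control EYFP OE rosettes. Both lines lay wholly above EYFP OE, and the EYFP OE libraries were a wide pair.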

How the data were processed

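Poly(A) RNA was sequenced by the submitters from roots and rosettes of 4 lines on 2 media, with 2 libraries a group, and deposited as 26 tables of 2 groups each over 33611 features. The submitters' processing notes name bcl2fastq 1.8.4, Trimmomatic 0.35, Bowtie2 2.0.6, edgeR 3.12.1, limma 3.26.9 and TAIR10; the counting, its strand and the annotation are not given in the sources used here. The level columns deposited by the authors are RPKM, per the file headers and values, normalised within each table. The deposited log2 fold changes and p-values of a Z-test are the authors' own, per the file headers. Whole reads could not be recovered from the RPKM values, so the depth of each library is unknown and no count test or counting interval was possible. All columns were mapped to samples.

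Levels were transformed here to log2(RPKM + 0.5), and genes were kept when their mean across a tissue's 16 libraries reached 0.5 RPKM. A change was taken between groups deposited together. The response within IMA1 OE, IMA3 OE or opt3-2 is the difference of 2 such changes against the same EYFP OE control libraries. These cancel apart from differences in normalisation. Printed levels of a line come from its table with EYFP OE control libraries of the same tissue, and levels set across tables were normalised separately. The spread came from all 8 groups of the tissue (8 residual degrees of freedom), moderated with limma 3.58.1 (squeezeVar with a trend, R 4.3.3), with Benjamini-Hochberg adjustment over all genes and a threshold of 0.05, 2-sided. The procedure was tested on simulated data. Tables and figures used Python 3.11.15, pandas 2.3.3, numpy 2.4.6 and matplotlib 3.10.9.

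The 98 genes and the gene lists were chosen with earlier results of these data known. Named genes are members on a list, the 10 lowest ratios, up to 5 calls with the lowest adjusted p in each response, calls shared by lines or tissues, and the 3 loci on each side of the ratio limit; other members named were chosen after their values were seen. Alternatives changed the pseudocount (0.1, 1), the filter (none, 2 RPKM), the source of the spread (the compared groups alone or, added later, the root groups other than EYFP OE), the replicate block and the bridging libraries, used the authors' p-values, and left out each library in turn.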

Additional observations from a re-analysis of the deposited data

Results flagged for a closer look

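A few members ran against the direction that the rule fixed in EYFP OE roots: in another line both Fe-deficient root libraries lay above both control libraries. The differences from EYFP OE were not tested, because those libraries chose the genes. Such genes numbered 1 in IMA1 OE, 4 in IMA3 OE and 2 in opt3-2 of the 98. The share of all genes separated in this direction is not given here, so nothing about the members is read from these counts. AT5G38290, a peptidyl-tRNA hydrolase, had changes of 0.10 in IMA1 OE, 0.24 in IMA3 OE and 0.16 in opt3-2 roots on the log2 scale, with 5.19 and 5.16 RPKM under deficiency and 4.84 and 5.05 RPKM on control medium in IMA1 OE. AT1G20015, a snoRNA, had 5.74 and 5.39 RPKM in Fe-deficient IMA3 OE roots, against 2.84 and 3.58 RPKM on control medium, a change of 0.81. U1.5, a snRNA, had 17.17 and 104.79 RPKM in Fe-deficient IMA3 OE roots, against 10.46 and 9.35 RPKM, a change of 2.15. The plastid locus ATCG00920 had changes of 5.22 in IMA3 OE and 0.73 in opt3-2 roots. The IMA3 OE values come from the 2 root libraries with raised plastid and mitochondrial RNA.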

How the results depend on the processing

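Over the alternatives of 63 single-gene results, 537 kept the call, 195 lost it and 0 reversed. Each result is 1 gene in 1 comparison, and 12 of the 63 results kept the call throughout. Without the filter on low values the counts of members called lower were 8 in IMA1 OE, 2 in IMA3 OE and 12 in opt3-2 roots and 5 in EYFP OE rosettes. With the spread estimated from only the groups compared they were 8 in IMA1 OE and 11 in opt3-2 roots, 0 in EYFP OE and 1 in IMA3 OE rosettes; the pairs of root responses gave 1 (also without the EYFP OE root groups in the spread), and the members higher than in EYFP OE in Fe-deficient rosettes 0, 0 and 0 for IMA1 OE, IMA3 OE and opt3-2. A pseudocount of 1 gave 1 fall in opt3-2 rosettes, and a mean of at least 2 RPKM gave 1 member higher in Fe-deficient IMA3 OE rosettes. P-values from the authors' deposited table gave 2, 2 and 3 members higher in IMA1 OE, IMA3 OE and opt3-2 control rosettes, and 8 and 7 in Fe-deficient IMA3 OE and opt3-2 rosettes. The shares of all genes called under these settings are not given beside these counts. Nothing about the members is therefore read from them. A ratio limit of 0.5 kept 36 of the 98 genes. The causes were not tested.

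The replicate numbers are not stated to pair the samples. Same-numbered libraries of the 2 media correlated in their deviations at 0.165, 0.483, 0.219 and 0.313 in roots of EYFP OE, IMA1 OE, IMA3 OE and opt3-2, and at 0.336, 0.566, 0.332 and 0.441 in their rosettes. With the replicate block the counts of falls were 22 in IMA1 OE, 11 in IMA3 OE and 41 in opt3-2 roots, 1 in IMA3 OE rosettes and 8 in opt3-2 rosettes; members higher than in EYFP OE numbered 1 in control IMA1 OE rosettes, and 5 and 2 in Fe-deficient IMA3 OE and opt3-2 rosettes. All 63 single-gene calls were kept under the block. The shares of all genes called under it are not given here, so the changed counts are not read as a result about the members.

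Leaving out 1 library gave 8 to 10 falls in IMA1 OE, 0 to 3 in IMA3 OE and 11 to 13 in opt3-2 roots, 3 to 10 in EYFP OE rosettes and 0 in the rosettes of the other lines. Members higher than in EYFP OE ranged from 0 to 2, 0 and 0 to 1 in control rosettes and from 3 to 12, 0 to 6 and 0 to 3 in Fe-deficient rosettes of IMA1 OE, IMA3 OE and opt3-2, and calls between root responses from 0 to 2. The shares of all genes called with a library left out are not given here, so these counts are not read as a result about the members. With 1 library left out, the members' median in IMA1 OE rosettes ran from -0.18 to 0.05. With 2 libraries a group and unknown depth, small changes of low genes could not be resolved.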
